A study of Mus musculus with 20 samples.

Results

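The genes described here act in mitosis and in building the spindle, and were chosen by symbol from a list of mitotic cyclins, kinases, kinesins, kinetochore subunits, spindle checkpoint proteins and condensin subunits. The list holds 60 genes of the 50559 in each deposited table. All 60 were found in both tables, and all 60 were among the 14333 genes tested. These had at least 1 CPM (counts scaled to library size, for this filter without TMM factors) in at least 5 libraries. Levels below are CPM with TMM factors, which raise liver values. On that scale 18 of the 60 members reached 1 CPM in every liver. The other 42 passed the filter through the tumors, where they were high. Some of the 18, Cdk1 among them, were under 1 CPM in a liver without TMM factors and passed likewise.

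Messenger RNA was sequenced from 20 mouse samples in 4 groups of 5. Tumors were raised by hydrodynamic gene transfer, in which plasmids are injected rapidly into the tail vein of young adult female C57Bl6J mice and a Sleeping Beauty transposase inserts them in a fraction of hepatocytes. All tumors carried a MYC plasmid with the EF1a promoter, combined with human FGF19 (FGF19+MYC), with its analog Aldafermin (Aldafermin+MYC), or with a CRISPR plasmid against the tumor suppressor gene Trp53 (sgTrp53+MYC). The labels call the fourth group non treated healthy liver, whereas the study describes its control livers as injected with an RFP plasmid. Aldafermin differs from the hormone FGF19 by a change at its N-terminal end. The treatment field of the sgTrp53+MYC samples reads none, so that their group was taken from the titles, and the 5 libraries fill a table of their own. Whatever sets the tables apart therefore cannot be told apart from what sets sgTrp53+MYC tumors apart. Each tumor sample was an individual nodule of bulk tissue that could hold other cells than tumor cells, and genotypes were wild type before injection.

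Between 18004977 and 66354724 reads per library fell on genes, with medians of 34227256 in Aldafermin+MYC, 22749906 in FGF19+MYC and 60721954 in sgTrp53+MYC tumors, and of 33252026 in livers. Every member had at least 74 reads in every tumor, and 5 members had no read in at least 1 liver. The share of reads that the counter left out as ambiguous was 11.1 to 14.6% in sgTrp53+MYC libraries and 3.03 to 6.30% in the others. Trp53 itself measured 18.7 to 79.8 CPM in sgTrp53+MYC tumors, against 90.7 to 176 CPM in the other tumors and 28.8 to 36.3 CPM in livers. The 10 hepatocyte markers examined were all lower in both kinds of tumors than in livers, with summed levels of 5004 to 31711 CPM in tumors and 196650 to 243730 CPM in livers.

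Cells enter mitosis when cyclin B and CDK1 form an active kinase, which CDC25 phosphatases switch on. Kinesins and microtubule-binding proteins then assemble the spindle, kinetochores attach chromosomes to it, and the spindle checkpoint holds the anaphase-promoting complex (APC/C) inactive until every chromosome is attached. APC/C with CDC20 then has securin and cyclin B destroyed, so that separase can part the sister chromatids. Adult hepatocytes rarely divide. In dividing cells, most of these genes are transcribed from the end of S phase to mitosis by B-MYB and FOXM1 with the MuvB complex, which binds the cell cycle genes homology region (CHR) of their promoters, and by NF-Y, which binds CCAAT boxes. In resting cells the DREAM complex occupies the same CHR sites.

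The sequences upstream of 5 members are printed because they show this promoter layout, and that of Pttg1, encoding securin, because it was the one member whose level went the other way in tumors. They are the 150 bases before the annotated start, from the RefSeq promoter table (GRCm38.p6), read 5′ to 3′ on the gene's strand. Capitals mark CHR elements, searched as TTTGAA or TTTAAA, and CCAAT boxes, searched as CCAAT, each on both strands, so that TTCAAA and ATTGG are the reverse forms. TTTAAA reads the same on both strands and was counted once. The windows lie at chr13:100786487-100786636 (minus strand) for Ccnb1, chr10:69352913-69353062 (minus) for Cdk1, chr4:118437344-118437493 (minus) for Cdc20, chr2:164769779-164769928 (plus) for Ube2c, chr11:99024190-99024339 (minus) for Top2a and chr11:43425982-43426131 (minus) for Pttg1.
Ccnb1: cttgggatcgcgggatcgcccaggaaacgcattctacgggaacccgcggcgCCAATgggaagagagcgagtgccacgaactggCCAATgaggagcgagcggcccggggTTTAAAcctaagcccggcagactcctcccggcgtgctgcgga
Cdk1: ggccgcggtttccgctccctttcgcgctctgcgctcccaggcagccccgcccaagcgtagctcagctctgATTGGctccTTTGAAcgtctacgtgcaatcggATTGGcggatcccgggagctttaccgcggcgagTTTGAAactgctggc
Cdc20: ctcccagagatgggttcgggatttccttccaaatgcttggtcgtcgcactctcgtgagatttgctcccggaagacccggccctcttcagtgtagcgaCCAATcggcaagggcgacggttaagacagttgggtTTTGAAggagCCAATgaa
Ube2c: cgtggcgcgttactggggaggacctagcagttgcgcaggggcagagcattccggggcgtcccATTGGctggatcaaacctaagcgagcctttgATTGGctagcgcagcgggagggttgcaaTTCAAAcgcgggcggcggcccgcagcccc
Top2a: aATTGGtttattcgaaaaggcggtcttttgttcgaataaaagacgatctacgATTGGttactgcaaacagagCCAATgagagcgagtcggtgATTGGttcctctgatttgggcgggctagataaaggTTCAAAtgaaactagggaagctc
Pttg1: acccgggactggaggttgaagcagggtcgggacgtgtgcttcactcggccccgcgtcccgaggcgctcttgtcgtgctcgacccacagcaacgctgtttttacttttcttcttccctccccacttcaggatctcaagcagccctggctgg

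The Pttg1 window held neither element. By the shift between builds at Hmmr and Top2a, on either side of it on chr11, the start used for Pttg1 lies inside its GENCODE bounds. It is downstream of their 5′ end, so that the window need not hold the gene's main promoter. A link between these elements and the level of Pttg1 was not tested. Among all members, 51 were in the promoter table with 57 promoters, in windows of 300 bases from 250 before to 50 after the start. A CHR element was in 43 of the 57, or 75.4%, against 27.6% of the 32851 promoters of all genes. A CCAAT box was in 77.2% of member promoters and 37.4% of all, and both elements were in 64.9% against 10.7%. At least 2 CCAAT boxes were in 49.1% of member promoters and in 11.7% of all. The E2F motif, searched as TTCGCGC or TTGGCGC, was in 17.5% against 3.89%. The E-box CACGTG, which MYC with its partner MAX can bind, was in 5.26% of member promoters and 7.15% of all. Mki67 held 2 CHR elements and 3 CCAAT boxes, whereas Mybl2, Mad2l1, Nuf2, Nusap1 and Pttg1 held none of the 4 motifs. The table had no entry for Ccna2, Cdc25c, Foxm1, Aurkb, Incenp, Spc24, Kif20a, Tpx2 and Smc4. These matches describe letters in a window and not bound sites.

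**Figure D1:**
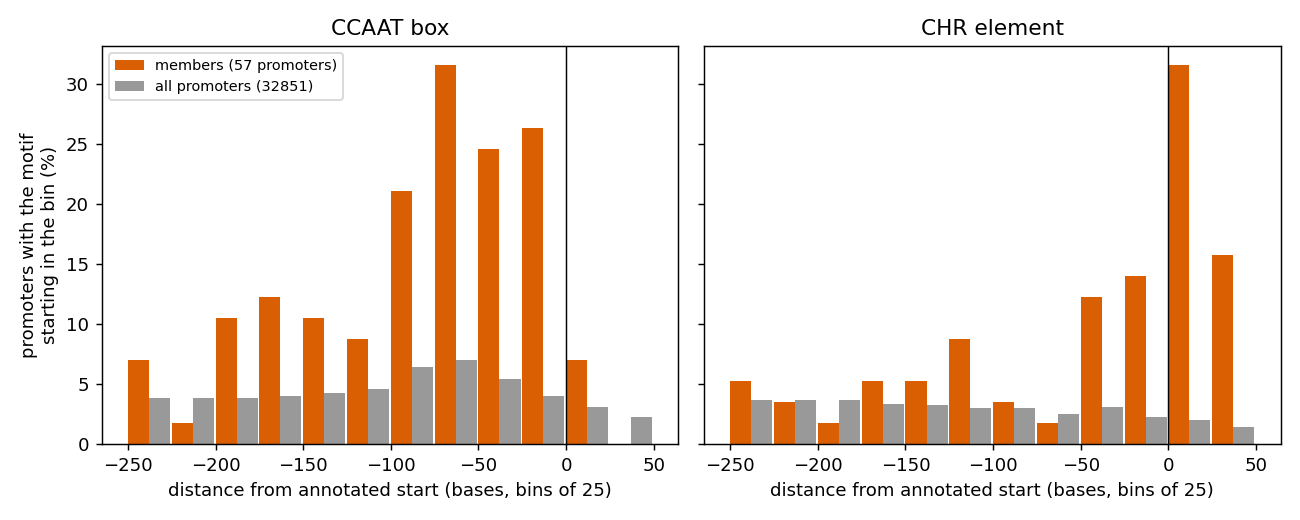
Share of promoters (y axis, percent) in which a CCAAT box (left) or a CHR element (right) starts in each bin of 25 bases, by distance from the annotated start in bases (x axis), for the 57 member promoters (orange) and all 32851 promoters (grey). Member CCAAT boxes were most frequent from 75 to 51 bases before the start (31.6% against 6.99%), and CHR elements in the first 25 bases after it (31.6% against 1.99%).

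The plot of motif positions showed where the elements stood. With the 250 bases before the start alone, 47.4% of member promoters held a CHR element (25.2% of all), since many elements lay just downstream of the start, and 77.2% held a CCAAT box (33.8% of all).

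Levels of the members were low in livers and high in every tumor group. The members' summed level was 161 to 271 CPM in livers, 3968 to 5274 CPM in Aldafermin+MYC, 3672 to 4740 CPM in FGF19+MYC and 4189 to 5548 CPM in sgTrp53+MYC tumors, which is 0.0105 to 0.0169% of gene reads in livers and 0.375 to 0.654% in tumors. With Aldafermin+MYC and FGF19+MYC tumors pooled, 59 of the 60 members were higher than in livers and 1, Pttg1, was lower, where 73.7% of all genes tested passed the threshold (39.2% higher and 34.5% lower). The same 59 were higher and Pttg1 lower in sgTrp53+MYC tumors against livers, where 69.9% of all genes passed (36.9% higher and 33% lower). The median log2 fold change over the members was 5.70 in the pooled tumors and 5.87 in sgTrp53+MYC tumors, while over all genes tested it was 0.10 and 0.07. Both comparisons use the same 5 livers. In each, the lowest tumor was above the highest liver for all 59 members, a pattern seen in 28.5% of all genes for the pooled tumors and 28.8% for sgTrp53+MYC tumors. The highest tumor was below the lowest liver for Pttg1 in both, as for 25.7% and 27.4% of all genes. Among the 18 members with at least 1 CPM in every liver, 17 were higher and 1 lower in either comparison, with medians of 4.20 and 4.45. Shares and medians over all genes that reach 1 CPM in every liver were not computed. In bulk tissue, more dividing cells and more RNA per cell cannot be told apart, and the part of the lower hepatocyte markers in these differences was not tested.

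**Figure D2:**
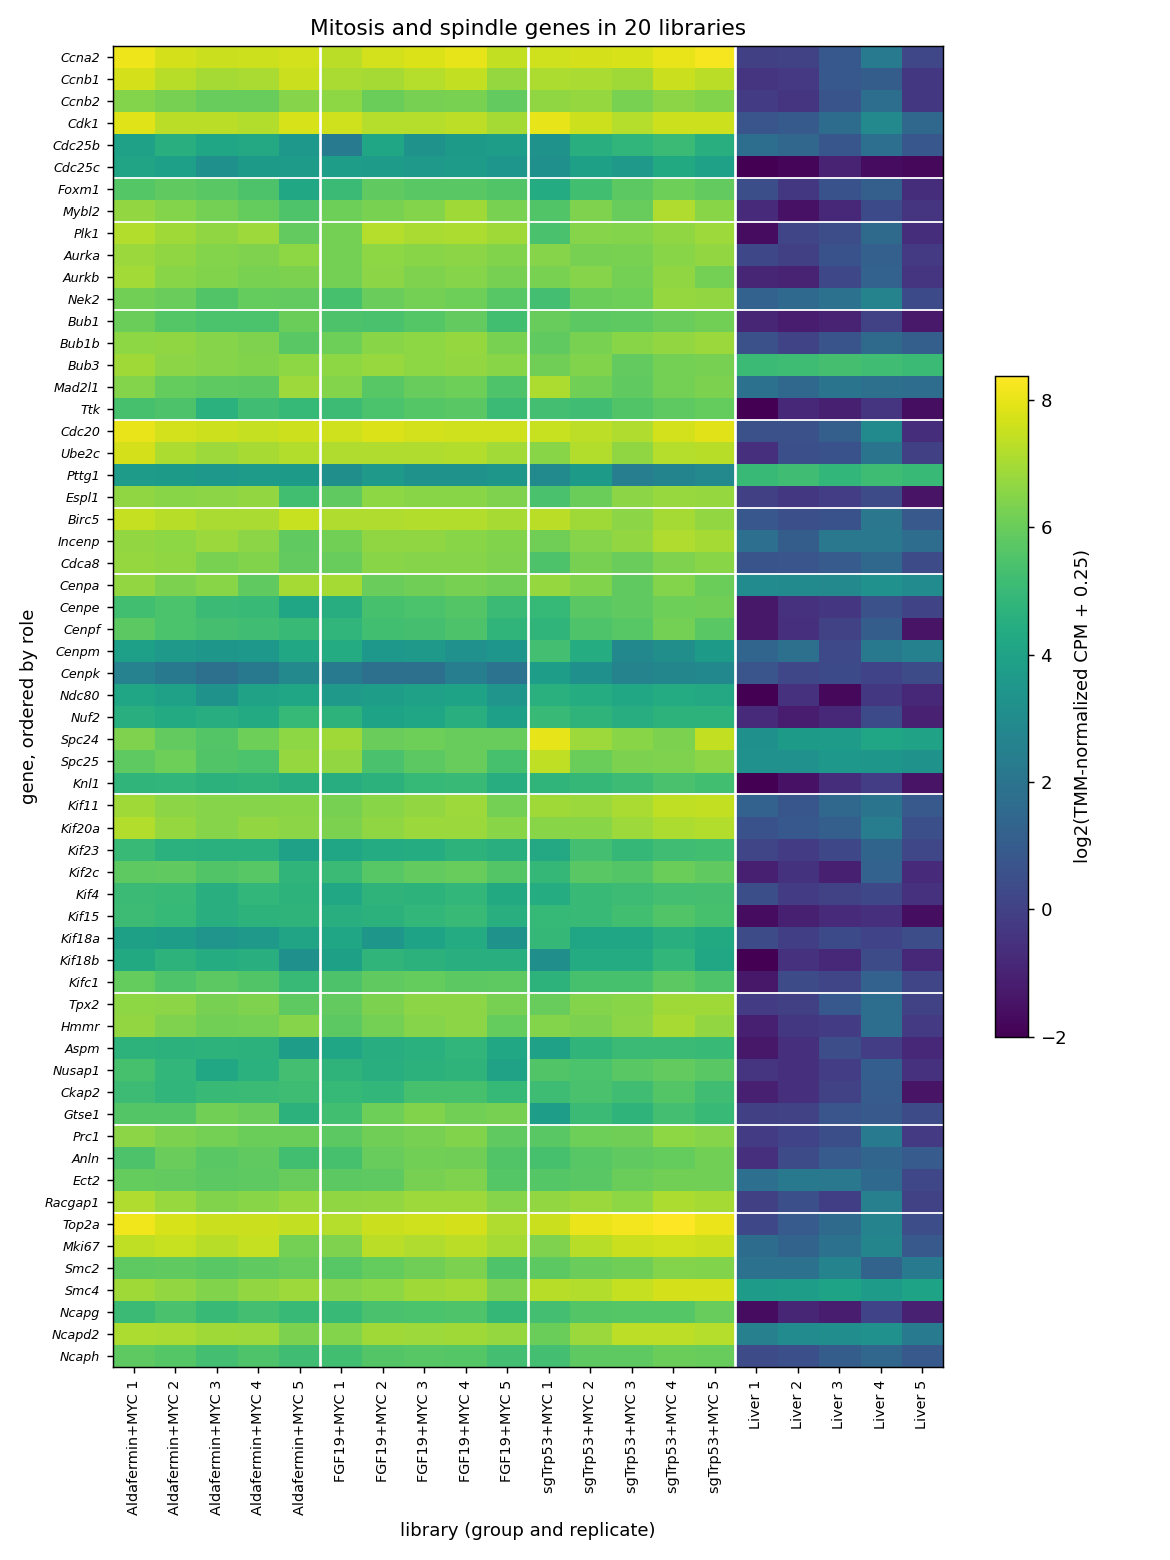
Levels of the 60 members (rows, grouped by role) in the 20 libraries (columns, by group and replicate), as log2 of CPM plus 0.25 (colour scale). One colour scale serves all rows. Within a row, the 15 tumor columns are brighter than the 5 liver columns for every member but Pttg1, which is reversed. Bub3, Smc4, Spc24, Spc25 and Cenpa are the brightest of the others in livers.

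Among the cyclins and CDK1, all 6 members of the group rose in both kinds of tumors. Ccnb1 encodes cyclin B1, the partner of CDK1 at mitotic entry. Replicates 1 to 5 measured 210.5, 151, 126, 132 and 188 CPM in Aldafermin+MYC, 133, 126, 147, 173 and 105 CPM in FGF19+MYC and 135, 134, 117, 188 and 157 CPM in sgTrp53+MYC tumors, against 0.501, 0.586, 1.54, 1.84 and 0.557 CPM in livers. Its log2 fold change against livers was 7.23 (SE 0.34, adjusted p = 9.61e-13) in the pooled tumors and 7.20 (SE 0.35, adjusted p = 1.83e-12) in sgTrp53+MYC tumors. Cdk1 encodes the kinase itself. Its level was 230.1, 158, 155, 143 and 213 CPM in the 5 Aldafermin+MYC tumors, 194, 148, 149.9, 163 and 124 CPM in FGF19+MYC tumors and 256, 190.5, 148, 190 and 193 CPM in sgTrp53+MYC tumors, and 1.43, 1.65, 2.91, 7.16 and 2.63 CPM in the livers. The log2 fold changes of Cdk1 were 5.75 (SE 0.36) and 5.97 (SE 0.37). Liver replicate 4 was the highest liver for both genes, and every tumor was above it. Cdc25b, a phosphatase that activates CDK1, was the least raised of the group. Cdc25b reached 15.2, 22.1, 17.4, 19.01 and 11.2 CPM in Aldafermin+MYC, 4.51, 16.9, 9.59, 12.4 and 13.8 CPM in FGF19+MYC and 9.44, 22.1, 28.1, 33.2 and 23.1 CPM in sgTrp53+MYC tumors, while livers had 3.08, 2.42, 1.46, 3.21 and 1.51 CPM. Its lowest value in tumors, 4.51 CPM in FGF19+MYC replicate 1, stood near the highest liver, and its log2 fold changes were 2.59 (SE 0.34) and 3.33 (SE 0.37). Cdc25c reads were scarce in livers, with 0 to 0.265 CPM, against 8.88 to 19.6 CPM in tumors.

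Both transcription factors of mitotic genes rose in both kinds of tumors, Mybl2 above the median of the members and Foxm1 below it. Mybl2 encodes B-MYB, which joins MuvB in S phase. In livers Mybl2 stood at 0.358, 0.110, 0.309, 1.02 and 0.517 CPM, and in tumors at 103, 87.1, 74.4, 60.7 and 45.3 CPM with Aldafermin+MYC, 67.4, 77.4, 88.1, 117 and 77.7 CPM with FGF19+MYC and 46.1, 81.3, 62.2, 139 and 91.2 CPM with sgTrp53+MYC. Its log2 fold change was 7.51 (SE 0.44, adjusted p = 1.49e-11) in the pooled tumors, the highest of all members there, and 7.59 (SE 0.45) in sgTrp53+MYC tumors. Foxm1 encodes the forkhead factor that follows it. The 5 livers gave 1.15, 0.549, 1.28, 1.98 and 0.398 CPM of Foxm1, compared with 48.99, 56.99, 51.7, 43.7 and 18.6 CPM in Aldafermin+MYC, 33.04, 57.5, 52.1, 52.7 and 47.3 CPM in FGF19+MYC and 20.4, 36.95, 53.8, 66.7 and 58.95 CPM in sgTrp53+MYC tumors. The lowest tumors were Aldafermin+MYC replicate 5 and sgTrp53+MYC replicate 1, and the log2 fold changes were 5.49 (SE 0.42) and 5.53 (SE 0.44).

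Mitotic kinases rose together, 4 of 4 in both kinds of tumors. Plk1 encodes polo-like kinase 1, which drives centrosome maturation and mitotic entry. For Plk1, Aldafermin+MYC tumors had 144, 118, 101, 115 and 57.8 CPM, FGF19+MYC tumors 73.3, 150.4, 132, 134 and 119 CPM, sgTrp53+MYC tumors 41.6, 88.3, 86.4, 100 and 115 CPM and livers 0.0716, 0.878, 1.103, 2.73 and 0.398 CPM. Log2 fold changes of Plk1 were 6.82 (SE 0.52) in the pooled tumors and 6.42 (SE 0.53) in sgTrp53+MYC tumors. Aurkb encodes Aurora B, the kinase of the chromosomal passenger complex that corrects faulty attachments. Replicates 1 to 5 measured 121, 91.8, 85.2, 78.1 and 79.8 CPM in Aldafermin+MYC, 73.9, 93.9, 82.3, 88.98 and 74.8 CPM in FGF19+MYC and 77.1, 89.2, 74.4, 99.8 and 72.95 CPM in sgTrp53+MYC tumors, against 0.286, 0.256, 0.926, 2.11 and 0.477 CPM in livers. The 3 tumor groups overlapped for Aurkb, with log2 fold changes of 6.81 (SE 0.39) and 6.74 (SE 0.40) against livers. Birc5 encodes survivin, a subunit of the same complex. Its level was 174, 154, 131, 134 and 180.3 CPM in the 5 Aldafermin+MYC tumors, 139, 139.7, 146, 143 and 129 CPM in FGF19+MYC tumors and 156, 119, 95.6, 125 and 102 CPM in sgTrp53+MYC tumors, and 1.504, 1.21, 1.28, 4.02 and 1.59 CPM in the livers. For Birc5 these were 6.29 (SE 0.29) and 5.99 (SE 0.29), and Incenp and Cdca8 of the complex rose as well.

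The 5 spindle checkpoint members spanned most of the range of rises. Ttk encodes MPS1, the kinase that starts checkpoint signalling at unattached kinetochores. Ttk reached 40.2, 43.6, 24.4, 36.1 and 30.5 CPM in Aldafermin+MYC, 33.8, 42.5, 48.8, 51.7 and 33.1 CPM in FGF19+MYC and 38.3, 36.1, 46.7, 55.5 and 59.6 CPM in sgTrp53+MYC tumors, while livers had 0, 0.329, 0.221, 0.477 and 0.0796 CPM. Its log2 fold change was 7.41 (SE 0.38) in the pooled tumors and 7.72 (SE 0.39) in sgTrp53+MYC tumors, the highest there. Bub1 encodes a further checkpoint kinase. In livers Bub1 stood at 0.286, 0.183, 0.265, 0.750 and 0.159 CPM, and in tumors at 65.1, 50.1, 43.3, 43.2 and 66.4 CPM with Aldafermin+MYC, 44.6, 42.2, 50.01, 58.8 and 37.4 CPM with FGF19+MYC and 61.4, 54.4, 55.6, 63.1 and 71.2 CPM with sgTrp53+MYC. Its log2 fold changes were 7.36 (SE 0.30) and 7.65 (SE 0.31). Bub3, a protein with WD40 repeats that brings BUB1 and BUBR1 to kinetochores, was already high in livers. The 5 livers gave 33.2, 35.5, 39.4, 36.3 and 32.9 CPM of Bub3, compared with 118, 94.2, 88.5, 83.5 and 96.5 CPM in Aldafermin+MYC, 97.8, 109, 96.7, 103 and 92.8 CPM in FGF19+MYC and 68.7, 85.5, 59.3, 73.3 and 74.7 CPM in sgTrp53+MYC tumors. Livers stayed below every tumor, and the log2 fold changes of 1.47 (SE 0.10, adjusted p = 2.03e-10) and 1.03 (SE 0.11, adjusted p = 1.40e-07) were the smallest rises among the members.

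APC/C regulation held both the member ranked first per kilobase of annotated exon in tumors and the one that fell. Cdc20 encodes the activator of APC/C at anaphase. For Cdc20, Aldafermin+MYC tumors had 261, 203, 189, 177 and 189 CPM, FGF19+MYC tumors 197, 225, 204, 196 and 194 CPM, sgTrp53+MYC tumors 182, 164, 139.6, 203 and 238 CPM and livers 1.22, 1.24, 1.94, 7.43 and 0.398 CPM. It ranked first per kilobase of exon in each tumor group (104.6 CPM per kb in Aldafermin+MYC, 104.4 in FGF19+MYC and 95.01 in sgTrp53+MYC tumors), with log2 fold changes of 6.42 (SE 0.52) and 6.28 (SE 0.54). Without liver replicate 4 these were 7.40 and 7.26, and the fold of 12 members rose by more than 1.5 times in each comparison: Cdc20, Ube2c, Ccna2, Ccnb2, Plk1, Aurkb, Cenpf, Kif2c, Hmmr, Ckap2, Prc1 and Racgap1. Ube2c, encoding the E2 enzyme of APC/C, and Espl1, encoding separase, rose as well. Pttg1 encodes securin, which keeps separase inactive. Replicates 1 to 5 measured 12.6, 12.2, 11.2, 12.8 and 12.5 CPM in Aldafermin+MYC, 8.75, 12.1, 9.59, 9.58 and 10.98 CPM in FGF19+MYC and 7.57, 12.3, 5.09, 6.199 and 7.16 CPM in sgTrp53+MYC tumors, against 31.6, 36.2, 29.1, 34.9 and 31.4 CPM in livers. Every liver was above every tumor. Pttg1 fell by 1.54 on the log2 scale (SE 0.15, adjusted p = 1.96e-08) in the pooled tumors and by 2.09 (SE 0.19, adjusted p = 7.75e-09) in sgTrp53+MYC tumors. With library totals in place of TMM factors Pttg1 fell by 0.69 and by 1.21, while the median of all genes moved to 0.94 and 0.95. In livers it ranked first of the members per kilobase of exon, at 13.2 CPM per kb. Pttg1 (chr11:43311071-43321000 in GRCm39, minus strand) shares 8.90% of its exonic bases with Slu7, a splicing factor gene on the opposite strand that measured 23.7 ± 4.23, 25.9 ± 3.98, 34.8 ± 8.16 and 36.1 ± 2.72 CPM (SD, n = 5) in Aldafermin+MYC, FGF19+MYC and sgTrp53+MYC tumors and livers. The strand setting of the counting is not given in the sources used here, and the part of Slu7 reads in the Pttg1 value was not tested.

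All 10 centromere and kinetochore members rose in both kinds of tumors, with log2 fold changes from 1.96 to 6.70 in the pooled tumors. Cenpa encodes the histone variant that marks centromeres. Its level was 104, 78.9, 92.4, 57.5 and 125 CPM in the 5 Aldafermin+MYC tumors, 124, 64.05, 69.1, 76.2 and 68.4 CPM in FGF19+MYC tumors and 106, 83.7, 56.4, 87.96 and 64.7 CPM in sgTrp53+MYC tumors, and 7.88, 7.36, 7.19, 9.34 and 7.76 CPM in the livers. Livers were even and well above 0, and the log2 fold changes were 3.44 (SE 0.22) and 3.34 (SE 0.24). Ndc80 encodes the subunit that grips the microtubule end. Ndc80 reached 17.6, 15.2, 9.803, 15.5 and 17.1 CPM in Aldafermin+MYC, 11.9, 13.3, 15.2, 16.1 and 10.4 CPM in FGF19+MYC and 24.04, 21.01, 17.8, 20.5 and 18.8 CPM in sgTrp53+MYC tumors, while livers had 0, 0.439, 0.0441, 0.545 and 0.318 CPM. Here liver reads were near 0, and the log2 fold changes were 5.67 (SE 0.42) and 6.20 (SE 0.44). Spc24, encoding a partner of NDC80, was spread widely among sgTrp53+MYC tumors. In livers Spc24 stood at 8.88, 12.5, 12.6, 16.8 and 15.5 CPM, and in tumors at 81.8, 58, 48.3, 67 and 96.8 CPM with Aldafermin+MYC, 118, 63.8, 67.04, 62.3 and 62.01 CPM with FGF19+MYC and 254, 115, 90.9, 79.01 and 171 CPM with sgTrp53+MYC. Its log2 fold changes were 2.45 (SE 0.29) and 3.42 (SE 0.32).

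Motors and spindle assembly factors followed. All 9 kinesins and all 6 microtubule-binding members rose. Kif11 encodes EG5, the motor that pushes spindle poles apart. The 5 livers gave 2.15, 1.46, 2.47, 3.68 and 1.63 CPM of Kif11, compared with 117, 95.1, 88.8, 90 and 91.03 CPM in Aldafermin+MYC, 74.6, 90.9, 103, 114 and 73.5 CPM in FGF19+MYC and 118, 112, 132, 165 and 171 CPM in sgTrp53+MYC tumors. Log2 fold changes of Kif11 were 5.38 (SE 0.24) and 5.96 (SE 0.25). Kif20a encodes a kinesin of the central spindle. For Kif20a, Aldafermin+MYC tumors had 145, 106, 90.5, 102 and 94.4 CPM, FGF19+MYC tumors 80.5, 100.5, 111, 113 and 91.2 CPM, sgTrp53+MYC tumors 91.2, 92.9, 116, 136 and 146 CPM and livers 1.29, 1.54, 1.94, 4.98 and 1.19 CPM. It shares 54.8% of its exonic bases with Cdc23 on the opposite strand, and its log2 fold changes were 5.59 (SE 0.33) and 5.76 (SE 0.34). Tpx2 encodes the activator of Aurora A on spindle microtubules. Replicates 1 to 5 measured 97.3, 93.8, 75.04, 81.05 and 56.1 CPM in Aldafermin+MYC, 58.3, 80.7, 94.6, 95.8 and 75.9 CPM in FGF19+MYC and 62, 85.9, 92.5, 117 and 117 CPM in sgTrp53+MYC tumors, against 0.644, 0.732, 1.54, 3.14 and 0.756 CPM in livers. Replicate 5 of Aldafermin+MYC and replicate 1 of FGF19+MYC and of sgTrp53+MYC were the 3 lowest tumors for Tpx2, as for Mki67. Kifc1 may share reads with near-identical copies and is uncertain.

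The genes of the cleavage furrow and of chromosome structure also rose, 4 of 4 and 7 of 7. Anln encodes anillin, the scaffold of the contractile ring. Its level was 44.4, 63.1, 52, 57.02 and 37.8 CPM in the 5 Aldafermin+MYC tumors, 41.1, 62.5, 70.8, 69.1 and 46.2 CPM in FGF19+MYC tumors and 40.6, 50.99, 56.2, 59.9 and 71.2 CPM in sgTrp53+MYC tumors, and 0.430, 1.02, 1.72, 2.39 and 1.71 CPM in the livers. The log2 fold changes of Anln were 5.22 (SE 0.31) and 5.26 (SE 0.32). Mki67 encodes Ki-67, which coats mitotic chromosomes and is the common marker of cycling cells. Mki67 reached 166, 179.9, 152, 175 and 74.3 CPM in Aldafermin+MYC, 82.5, 159, 140.1, 158 and 127 CPM in FGF19+MYC and 81.03, 154, 188, 199 and 186 CPM in sgTrp53+MYC tumors, while livers had 2.94, 2.196, 3.35, 6.27 and 1.59 CPM. Its level was 43.7-fold that of livers in the pooled tumors (log2 fold change 5.45, SE 0.37, adjusted p = 1.15e-10) and 50.02-fold in sgTrp53+MYC tumors (5.64, SE 0.39, adjusted p = 1.81e-10). Top2a encodes the topoisomerase that untangles sister chromatids. In livers Top2a stood at 0.931, 1.72, 2.73, 6 and 1.11 CPM, and in tumors at 286, 212, 187, 186 and 171 CPM with Aldafermin+MYC, 149, 185, 195, 210.5 and 141 CPM with FGF19+MYC and 185, 269, 293, 331 and 264 CPM with sgTrp53+MYC. Its log2 fold changes were 6.28 (SE 0.41) and 6.76 (SE 0.43). Ncaph encodes the kleisin subunit of condensin I. The 5 livers gave 1.07, 1.21, 1.85, 2.46 and 1.59 CPM of Ncaph, compared with 54.98, 49.9, 38.2, 46.1 and 36.2 CPM in Aldafermin+MYC, 37.5, 47.99, 51.5, 49.8 and 38.8 CPM in FGF19+MYC and 38.8, 55.2, 55.5, 65.2 and 61.9 CPM in sgTrp53+MYC tumors. Smc4, the ATPase subunit shared by both condensins, was higher in livers than Ncaph per kilobase of exon (2.22 against 0.331 CPM per kb). For Smc4, Aldafermin+MYC tumors had 117, 103, 84.6, 102 and 116 CPM, FGF19+MYC tumors 89.05, 96.7, 119.6, 126 and 79.9 CPM, sgTrp53+MYC tumors 154, 143, 175, 206 and 211 CPM and livers 13.1, 13.9, 15.8, 12.9 and 16.1 CPM. Smc4 had log2 fold changes of 2.85 (SE 0.15) and 3.63 (SE 0.16), below the median of the members.

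**Figure D3:**
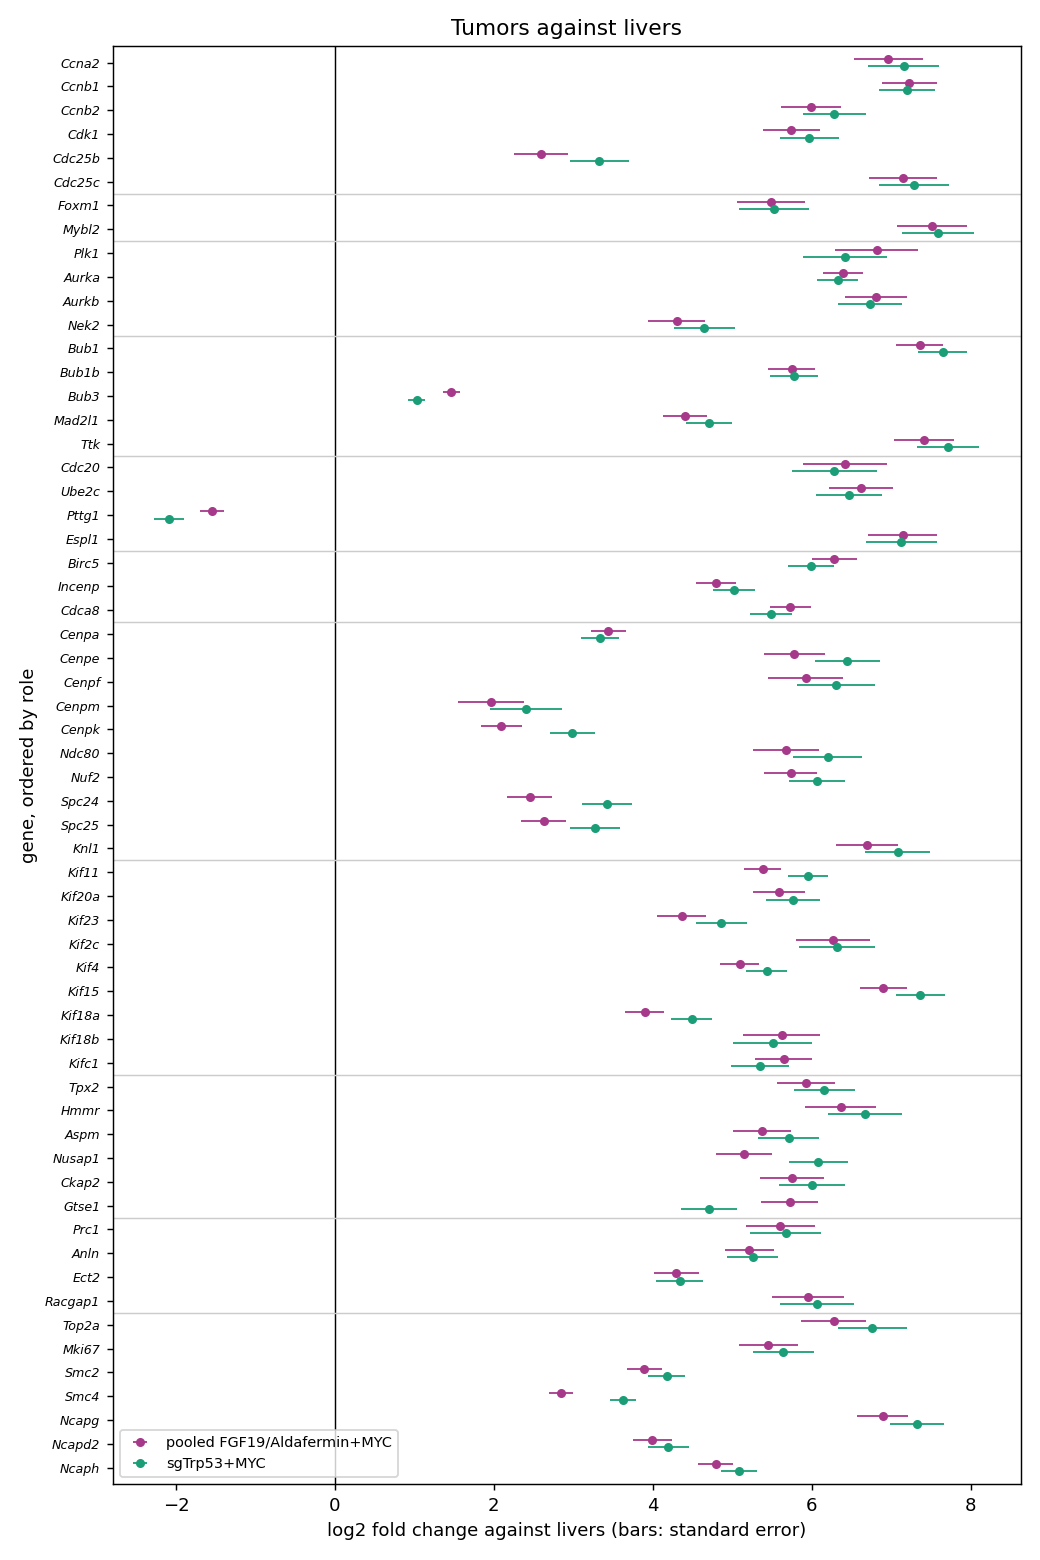
Log2 fold changes against livers (x axis) of the 60 members (y axis, grouped by role) in tumors with FGF19 or Aldafermin, pooled (purple), and sgTrp53+MYC tumors (green), with bars for the standard error. All but Pttg1 lie to the right of 0, from Bub3 (1.47 and 1.03) to Mybl2 (7.51) and Ttk (7.72).

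Whether tumors made with the analog differ from those made with the hormone in these genes was asked by setting both groups side by side. No member passed the threshold by edgeR's quasi-likelihood test, nor did any gene of the 14333 tested (0% called), and no member had an unadjusted p under 0.05, against 7.31% of all genes. DESeq2 and edgeR's likelihood ratio test called 0 members and 96 and 59 genes in all. For 39 of the 60 members the log2 fold change was above 0, with a median of 0.06 and a range from -0.40 to 0.57 (median of all genes 0.02). Values of the groups overlapped for every member. The 95% confidence intervals, approximate because their standard errors were derived from the test statistic, had a median width of 1.20 on the log2 scale. They reached from -1.02 to 1.27 over all members. For 56 members the interval lay within 1 of 0 on the log2 scale, while 55 intervals reached 0.5 in one direction or the other.

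Cdc25b had the highest log2 fold change, 0.57 (SE 0.34, 95% interval -0.13 to 1.27, adjusted p = 0.796), at 17.0 ± 4.09 CPM in Aldafermin+MYC and 11.4 ± 4.69 CPM in FGF19+MYC tumors (SD, n = 5). Next came Nusap1, whose protein bundles spindle microtubules. Nusap1 measured 40.2, 28.7, 17.7, 24.1 and 38.4 CPM in Aldafermin+MYC and 26.6, 23.3, 25.1, 26.5 and 15.5 CPM in FGF19+MYC tumors. Its log2 fold change was 0.35 (SE 0.29, 95% interval -0.25 to 0.95). The lowest was -0.40 for Gtse1 (SE 0.29, 95% interval -1.005 to 0.20), followed by Ttk at -0.26 (SE 0.26, 95% interval -0.82 to 0.29). Intervals for the main markers were -0.49 to 0.82 for Mki67, -0.30 to 0.79 for Ccnb1, -0.41 to 0.83 for Cdk1, -0.86 to 0.58 for Foxm1 and -1.02 to 0.65 for Plk1. The narrowest among the genes printed by library belonged to Bub3, from -0.29 to 0.18. A p that misses the threshold does not show that both proteins act alike on these genes.

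Set against sgTrp53+MYC tumors, 9 of the 60 members passed the threshold in the pooled tumors, 3 higher and 6 lower, where 23.7% of all genes did (11.6% higher and 12.1% lower). The median log2 fold change over the members was -0.23, against -0.02 over all genes, and moved to -0.09 with offsets for the GC content and length of transcripts and to -0.34 without a filter on low counts. Groups were apart in 3 members, Smc4, Nusap1 and Ndc80, all lower in the pooled tumors (2.42% of all genes), and in 0 members in the other direction (3.28%). The 3 higher members were Gtse1, Pttg1 and Bub3, and the 6 lower ones were Spc24, Nusap1, Cenpk, Smc4, Kif18a and Kif11.

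Gtse1, whose protein binds microtubule tips and can move p53 out of the nucleus, differed most in the upward direction. Replicates 1 to 5 measured 47.7, 47.5, 70.9, 63.1 and 25.3 CPM in Aldafermin+MYC, 37.1, 67.8, 83.9, 71.96 and 75.3 CPM in FGF19+MYC and 13.9, 33.5, 26.7, 38.4 and 32.1 CPM in sgTrp53+MYC tumors, against 0.716, 0.769, 1.41, 1.64 and 1.03 CPM in livers. Its log2 fold change was 1.01 (SE 0.26, adjusted p = 0.00875), and Aldafermin+MYC replicate 5 and FGF19+MYC replicate 1 were the pooled tumors within the range of the sgTrp53+MYC tumors. Pttg1 was higher by 0.54 (SE 0.16, adjusted p = 0.0188) and Bub3 by 0.44 (SE 0.10, adjusted p = 0.00358). Bub3 values, listed above, met at the edge only, since sgTrp53+MYC replicate 2 at 85.5 CPM exceeded Aldafermin+MYC replicate 4 at 83.5 CPM.

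Smc4 showed the smallest adjusted p of the members. Its tumors measured 79.9 to 125.9 CPM in the pooled groups and 143 to 211 CPM in sgTrp53+MYC, without overlap, a log2 fold change of -0.78 (SE 0.12, adjusted p = 0.000225). Nusap1 in the pooled tumors was lower by 0.94 on the log2 scale (adjusted p = 0.00869). The 5 sgTrp53+MYC tumors had 47.3, 43.1, 52.03, 58.3 and 52.2 CPM. The highest pooled tumor, at 40.2 CPM, stayed below the lowest of these. Spc24 was lower by 0.97 (SE 0.24, adjusted p = 0.00727), although Aldafermin+MYC replicates 1 and 5 and FGF19+MYC replicate 1 lay within the sgTrp53+MYC range. Cenpk encodes a subunit of the inner kinetochore network. Cenpk measured 5.87, 4.33, 3.28, 4.300 and 7.17 CPM in Aldafermin+MYC and 4.74, 3.31, 3.32, 5.16 and 3.65 CPM in FGF19+MYC tumors. The 5 sgTrp53+MYC tumors had 13.3, 8.93, 6.06, 6.48 and 6.87 CPM. Its log2 fold change was -0.89 (SE 0.22, adjusted p = 0.00644), and only Aldafermin+MYC replicate 5 reached the sgTrp53+MYC range. Kif18a encodes a motor that damps chromosome oscillations at the metaphase plate, and its log2 fold change was -0.60 (SE 0.18, adjusted p = 0.0237). For Kif11 the value was -0.57 (SE 0.17, adjusted p = 0.0180). Ndc80 was at -0.53 (SE 0.27, adjusted p = 0.176) without overlap between groups.

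The markers of proliferation did not pass the threshold here. Log2 fold changes were -0.19 (SE 0.27, adjusted p = 0.643) for Mki67, 0.03 (SE 0.23, adjusted p = 0.949) for Ccnb1, -0.22 (SE 0.25, adjusted p = 0.561) for Cdk1, -0.04 (SE 0.30, adjusted p = 0.946) for Foxm1 and -0.49 (SE 0.28, adjusted p = 0.225) for Top2a. Cdc25b, at -0.73 (SE 0.28, adjusted p = 0.0661), came nearest to the threshold of the genes printed by library.

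**Figure D4:**
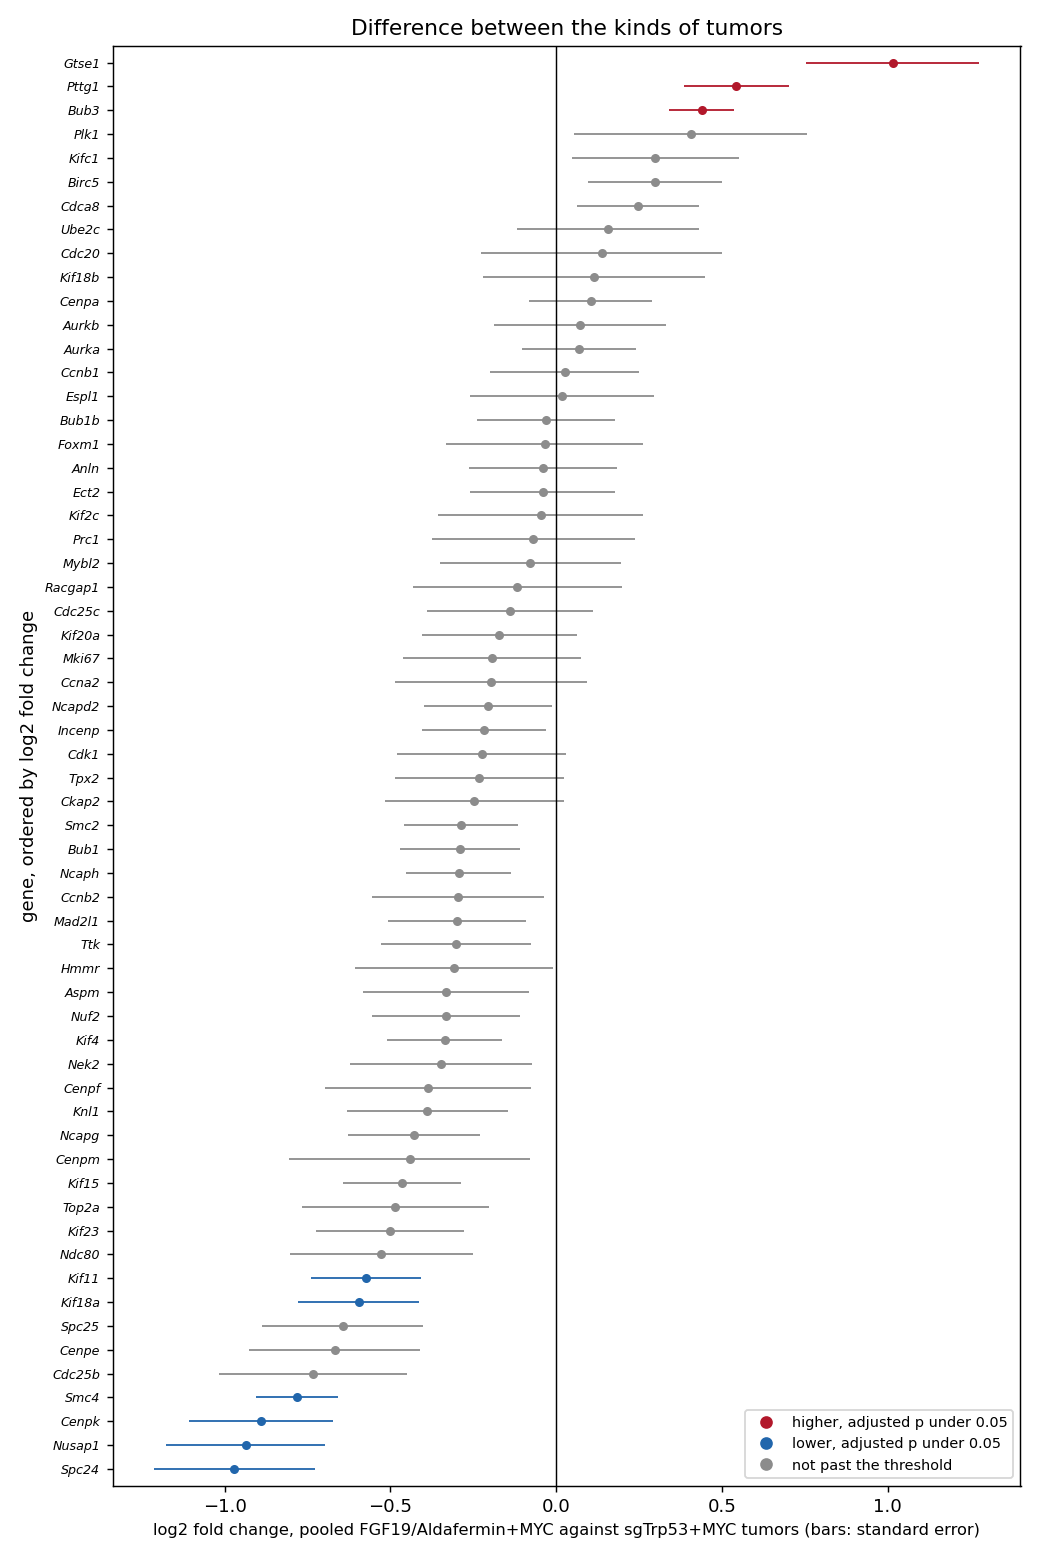
Log2 fold changes of the 60 members (y axis, in order of value) between tumors with FGF19 or Aldafermin, pooled, and sgTrp53+MYC tumors (x axis), with bars for the standard error. Red marks the 3 members that were higher, blue the 6 that were lower and grey the other 51; Gtse1 (1.01) and Spc24 (-0.97) stand at the ends.

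Over the 60 members these log2 fold changes rose with the GC content of the transcript (Spearman's rho 0.53), as over the 13847 genes with a known GC content (0.31), with genes that are not independent replicates. Median GC content was 42.8% in the 6 lower members, 46.7% in the 3 higher and 46.4% in all 60. With offsets for GC content and length, Kif11 was at -0.33 (adjusted p = 0.155) and Kif18a at -0.17 (adjusted p = 0.435), while Cdc25b, not called before, was lower, so that 3 members were higher and 5 lower, 4 of them among the 6 named above. The share of all genes called with these offsets was not computed. The calls for Smc4, Nusap1, Spc24, Cenpk and Gtse1 held in all 31 alternative settings. The restriction to members without opposite-strand overlap was not among the 31. It left Bub3 and Gtse1 higher and Kif11, Smc4 and Spc24 lower. Nusap1 and Cenpk were outside it, since they share 4.01% and 5.70% of their exonic bases with Oip5 and Ppwd1. The part of such overlaps in their calls was not tested. Leaving out single sgTrp53+MYC libraries ended the call for Kif11 without replicate 4 or 5 (adjusted p 0.0506 and 0.0636), for Kif18a without replicate 1 or 4 (0.0824 and 0.0514), and for Pttg1 without replicate 3, 4 or 5 (0.0609, 0.0535 and 0.0501).

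**Figure D5:**
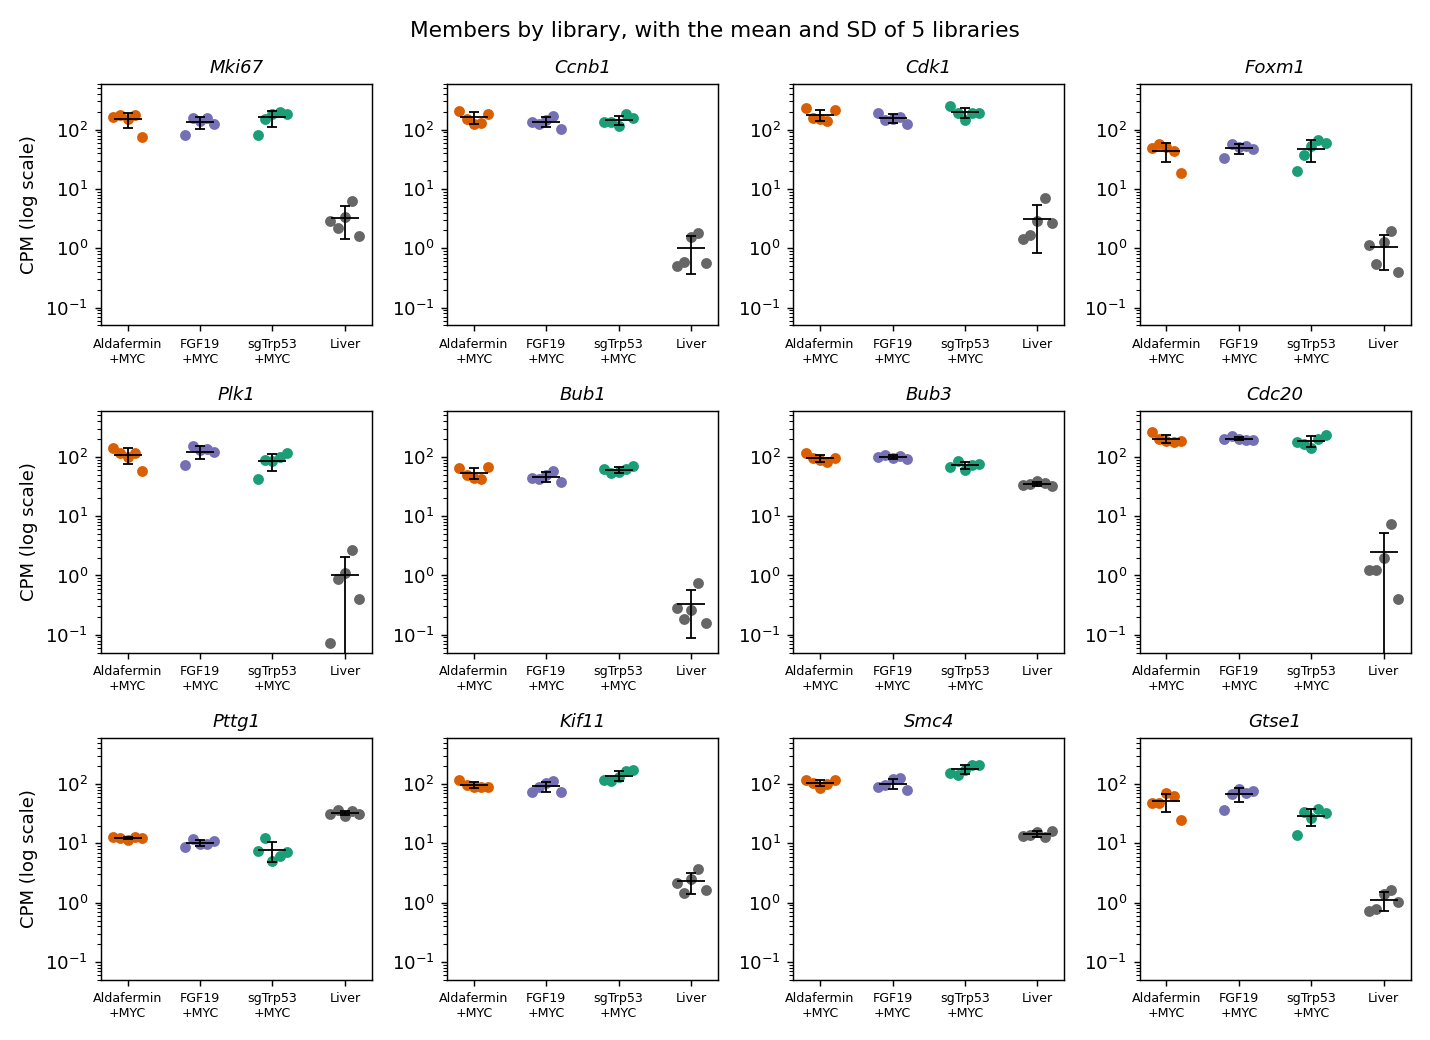
CPM on a log scale (y axis) of 12 members in the 5 libraries of each group (x axis), replicates 1 to 5 from left to right, with the arithmetic mean and SD in black. Lower bars run off the axis where the SD is close to the mean (Plk1 in livers) or above it (Cdc20 in livers). Tumors lie above livers in every panel but that of Pttg1.

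The members varied together only in part among the 15 tumors. Spread within a group was moderate, with median coefficients of variation over the members of 20.8% in Aldafermin+MYC, 19.3% in FGF19+MYC, 23.4% in sgTrp53+MYC tumors and 64.2% in livers. Over the 15 tumors, the patterns most like that of Mki67 (Pearson's r of log2 CPM) were those of Aspm (0.93), Espl1 (0.93), Ncapd2 (0.93) and Kif2c (0.92), and those least like it were Cenpm (-0.74), Cenpa (-0.71) and Mad2l1 (-0.64). Ranks gave another order. Spearman's rho with Mki67 was 0.90 for Ncapd2 and Kif4, 0.88 for Cdc25b, 0.84 for Aspm, 0.83 for Espl1 and 0.625 for Kif2c. By the same measure Cenpa was at -0.575, Cenpm at -0.53, Birc5 at -0.50 and Mad2l1 at -0.29. The median r over the other 59 members was 0.48, and 13 were below 0. These values describe libraries that share depth and RNA composition. Likeness to Mki67 by Pearson's r went with transcript length (Spearman's rho 0.31 over 59 members) and with GC content (0.27). The median length of the 10 most like it was 5073.5 bases against 3656 for the 10 least like it. Aldafermin+MYC replicate 5, FGF19+MYC replicate 1 and sgTrp53+MYC replicate 1 were the 3 lowest tumors for Mki67. Their deviations over all genes were also the most negatively related to transcript length (rho -0.43, -0.39 and -0.29). Among the members alone, the mean log2 deviation of the 30 longer minus that of the 30 shorter was -0.09, -0.16 and 0.05 there. It was lowest in FGF19+MYC replicate 5 (-0.20), where Mki67 measured 127 CPM. The part of transcript length or GC content in the pattern was not tested. Across members, sgTrp53+MYC replicate 4 was the highest tumor for 20 genes and FGF19+MYC replicate 5 the lowest for 17.

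Genes of the mitotic machinery outside the list had lower median changes than the members. Of 114 such genes, all tested, 95 rose and 6 fell in the pooled tumors against livers (median log2 fold change 2.04), beside 39.2% and 34.5% of all genes tested. In sgTrp53+MYC tumors 94 were higher and 3 lower (2.36), beside 36.9% and 33% of all genes. With library totals in place of TMM factors, which moved the median of all genes to 0.94 and 0.95, 111 and 112 were higher and 0 lower. By group, 12 of 16 further APC/C genes, 10 of 14 cohesin genes, 3 of 3 condensin II genes, 28 of 31 centromere, kinetochore and checkpoint genes, 24 of 27 kinesin, spindle and cytokinesis genes and 15 of 18 CDK1 regulators were higher in the pooled tumors. The MuvB core, which binds the CHR, split. Lin9 was higher by 1.93 on the log2 scale (SE 0.17), Lin54 by 0.73 (SE 0.17) and Rbbp4 by 0.63 (SE 0.17), whereas Lin37 was at -0.57 (SE 0.14) and Lin52 at -0.66 (SE 0.20), all past the threshold in the pooled tumors. With library totals the last 2 were at 0.28 (adjusted p = 0.106) and 0.16 (adjusted p = 0.428), so that their direction depended on the scaling. Between the pooled and sgTrp53+MYC tumors, 4 of the 114 (3.51%) were higher and 18 (15.8%) lower, beside 11.6% and 12.1% of all genes tested (median -0.20, or -0.06 with offsets for GC content and length, which left 2 higher and 11 lower). The number lower was 10 without sgTrp53+MYC replicate 4 or 5, 11 without replicate 3 of Aldafermin+MYC or replicate 2 of FGF19+MYC, and 12 to 23 with any other single tumor left out. Between Aldafermin+MYC and FGF19+MYC tumors 0 passed by edgeR's quasi-likelihood test and 1 by DESeq2 and by the likelihood ratio test, and 2 had an unadjusted p under 0.05 in the first of these tests.

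Lists of markers of other cells were examined in the same fit. Of these, 4 of 12 leukocyte and 2 of 7 erythroid markers did not pass the filter on low counts. In the pooled tumors against livers, 2 of the 8 leukocyte markers tested were higher and 1 lower, 3 of 6 stellate and fibroblast markers higher and 2 lower, and 3 of 6 endothelial, 3 of 5 cholangiocyte and 3 of 5 erythroid markers lower. Summed levels in the 15 tumors and 5 livers were 109 to 658 and 256 to 398 CPM for leukocyte markers, 143 to 2081 and 261 to 417 CPM for stellate and fibroblast markers, 51.8 to 177 and 219.6 to 356 CPM for endothelial markers, 1.81 to 777 and 44.2 to 123 CPM for cholangiocyte markers and 17.9 to 656 and 157 to 352 CPM for erythroid markers. In the pooled against the sgTrp53+MYC tumors, 4 hepatocyte markers were higher and 1 lower, 2 leukocyte and 2 erythroid markers were higher, 4 of 5 cholangiocyte markers were lower, and 0 of 6 endothelial and 0 of 6 stellate and fibroblast markers passed. The summed level of cholangiocyte markers was 777 CPM in sgTrp53+MYC replicate 2, 3.44 to 41.1 CPM in the other 4 of that group and 1.81 to 87.4 CPM in the pooled tumors, and without that library 0 of these markers passed. The part of these markers in the members' differences was not tested.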

How the data were processed

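The authors prepared stranded mRNA libraries, sequenced them as paired ends, aligned reads with HISAT2 to mm39 (demultiplexing by bcl2fastq 2.20.0.422, per the labels) and counted them with htseq-count on RefSeq genes. The deposited counts are whole numbers for each gene symbol, not normalized, and their 5 summary lines stayed out of library sizes and tests. The strand setting of the counting is not given in the sources used here. In edgeR 4.0.16 (R 4.3.3), genes had to reach 1 CPM in 5 or more libraries, TMM factors were applied, and quasi-likelihood tests came from one model of the 4 groups, with Benjamini-Hochberg adjustment over 14333 genes and a threshold of 0.05. Levels are TMM-normalized CPM. Standard errors (SE) were derived as the absolute log2 fold change divided by the square root of the quasi-likelihood F statistic. The 95% intervals add a t quantile times this value on either side, so that both are approximate. Replicate numbers belong to different mice. The test was also run on simulated counts with planted log2 changes of 1 and 2, which does not speak for smaller changes or for differences between the tables. Alternatives were DESeq2 1.42.0, edgeR's likelihood ratio test, other size factors and filters, only the groups compared, a replicate block and each library left out. Offsets for GC content and length, the restriction to members without opposite-strand overlap, and leaving out 2 libraries together were chosen after seeing the data. Gene coordinates and overlaps are from GENCODE M39 (GRCm39). Kilobases of exon take in the exons of all transcripts of a gene there, so that ranks per kilobase depend on this annotation. Values by library are given for 20 members chosen by role and for the 2 members at either end of the log2 fold changes of a comparison; Cenpk was added after its values were seen. The members and all lists were chosen with earlier results of these data known.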

Additional observations from a re-analysis of the deposited data

Results flagged for a closer look

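Values of the members printed by library, except Cenpk, and the summed level of all members were screened. The screen sought a library that stands far from the other 4 of its group. Of 108 groups of 5 libraries, 11 held such a value, where independent and normally spread values would flag about 1 in 20, or 5.4. The same libraries serve every gene, so that the groups were not independent.

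Liver replicate 4 held 6 of them. It measured 7.16 CPM of Cdk1 (1.43 to 2.91 in the other livers), 0.75 CPM of Bub1 (0.159 to 0.286), 7.43 CPM of Cdc20 (0.398 to 1.94), 4.02 CPM of Birc5 (1.21 to 1.59), 4.98 CPM of Kif20a (1.19 to 1.94) and 1.91 CPM of Nusap1 (0.403 to 0.662). This liver was the highest of the 5 for 47 of the 60 members, against 26.1% of all genes tested, with a median ratio of 2.51 to the mean of the others and more than 3-fold for 24 members. For the 59 members other than Pttg1 the lowest tumor was above it, by a median ratio of 16.1.

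Among tumors, Aldafermin+MYC replicate 5 had 74.3 CPM of Mki67 (151.5 to 179.9 in the others), and replicate 1 of that group had 117 CPM of Kif11 (88.8 to 95.1) and 145 CPM of Kif20a (90.5 to 106). FGF19+MYC replicate 1 had 124 CPM of Cenpa (64.0 to 76.2) and 118.5 CPM of Spc24 (62.0 to 67.0).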

How the results depend on the processing

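No call for a member printed by library changed direction under any alternative that was run, while the median between Aldafermin+MYC and FGF19+MYC tumors, 0.06 over the members, lay on either side of 0 (-0.02 to 0.11) when single libraries were left out. Among the genes outside the list, library totals turned 6 calls against livers in the pooled tumors (Ensa, Kif3b, Lin37, Lin52, Mad2l1bp and Mis12) and 2 in sgTrp53+MYC tumors (Mad2l1bp and Mau2, the latter also without a filter), and leaving out sgTrp53+MYC replicate 2 turned Epcam, Sox9 and Krt19. Against livers, 59 members stayed higher and Pttg1 lower in all of them, except that among the 27 members without opposite-strand overlap 27 were higher and 0 lower in both comparisons, Pttg1 being outside that subset. With library totals in place of TMM factors the median log2 fold change of the members was 6.54 for pooled tumors and 6.76 for sgTrp53+MYC tumors against livers, while the median of all genes moved to 0.94 and 0.95. Leaving out single libraries gave medians of 5.53 to 6.04 and 5.71 to 6.34. Between Aldafermin+MYC and FGF19+MYC tumors 0 members were called in every alternative. Between pooled and sgTrp53+MYC tumors, the number of lower members was 13 with DESeq2 (26.7% of members called in either direction, beside 28.9% of all genes), 12 with the likelihood ratio test (25%, beside 25.2%), 10 without a filter (1 higher), 13 with only the groups compared and 10 with Aldafermin+MYC replicate 5 and sgTrp53+MYC replicate 1 left out together. It ranged from 4 to 10 when single libraries were left out (10 without sgTrp53+MYC replicate 1 and 4 without sgTrp53+MYC replicate 4), and higher members from 2 to 3. Among the alternatives, shares over all genes were computed only for DESeq2 and the likelihood ratio test. The other counts above, and those under alternatives for genes outside the list, lack that comparison. Without a filter Bub3 (adjusted p = 0.0744) and Pttg1 (0.0975) lost their calls, and with only the groups compared Pttg1 did (0.0631). The cause of these shifts was not tested. With a replicate block 3 members were higher and 6 lower there, as without it, and the block changed no other count of members. The numbers do not pair mice: of 30 same-numbered pairs 6 correlated above 0.1, and 1 of 20 libraries correlated best with its own number. Low liver counts limit the precision of the largest fold changes.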

Other observations

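Among mitotic genes outside the list, Pimreg had the highest log2 fold change between Aldafermin+MYC and FGF19+MYC tumors, 3.25 (SE 0.79, adjusted p = 0.180), and was chosen after its values were seen.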
